A study of Mus musculus with 23 samples.

Results

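Transcript abundance in mouse prefrontal cortex was compared 18 h after a subcutaneous injection of colon carcinoma cells with that 18 h after an injection of buffer. The members are all arrays labelled 18 h, 6 of the 23 arrays of the series. They are 3 biological replicates, numbered 3, 4 and 5 by the labels, each measured as a dye swap. The other arrays belong to 72 h and 192 h after injection. On every array RNA of a tumour-injected and of a control cortex was hybridised together, 1 labelled with Cy3 and the other with Cy5, to oligonucleotides printed in house.

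All mice were male Balb/c and 8 weeks old. The tumour group received 1000000 cells of CT-26.WT, a colon carcinoma line of the same mouse strain, in 300 µl of PBS under the skin, and the control group 300 µl of PBS alone. Both groups were killed by decapitation after 18 h, so handling and injection are shared by both. The RNA was total RNA, and the labels do not say whether a replicate is 1 mouse or a pool. Nothing in them says how the mice of a replicate were matched, so the replicates are the units of the tests.

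Tumour cells under the skin lie outside the brain, and signals from them can reach it through blood, through nerves or through hormones. Circulating cytokines act on vessels and border tissues of the brain, and brain vessels and glia answer them with acute phase and chemokine transcripts. Stress hormones of the adrenal gland induce a known set of genes in neurons and glia. Neuronal activity switches on immediate early genes such as Arc, and the prefrontal cortex takes part in the control of stress responses. The comparison at 18 h asks whether cortical transcripts differ at this early time.

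Between 1821 and 8638 of 10080 spots were usable in a scanner file. The median spot signal with background was 1.69 to 4.77 times the local background. A probe is 1 GenBank entry with 1 gene symbol, and its value is the tumour over PBS log2 ratio, averaged over 3 scanner files and both dye orientations. Replicate 3 gave 4678 probes, replicate 4 gave 4199 and replicate 5 gave 7697. The mean intensity of probes correlated between the 6 arrays with Spearman's rho of 0.15 to 0.60, with a median of 0.28 over 15 pairs. These are descriptions across probes that share a print layout.

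The tissue label was checked by whether a channel gave signal above its background in at least 2 of 3 scanner files. Markers of cortical excitatory neurons were seen most often, 9 of 10 probes on 5 or more arrays in the PBS channel and 7 of 10 in the tumour channel, against 58.4% and 36.2% of all 8997 probes. Nrgn, a calmodulin-binding protein of dendritic spines, Neurod6, a transcription factor of cortical projection neurons, and Lamp5 gave signal on all 6 arrays in both channels. The inhibitory neuron marker Slc32a1, which loads GABA into vesicles, did so as well. Of 9 inhibitory neuron probes 7 passed in the PBS channel and 5 in the tumour channel. Oligodendrocyte markers passed for 5 of 6 probes in the PBS channel and for 0 of 6 in the tumour channel. Microglia markers passed for 5 of 8 and 1 of 8, and astrocyte markers for 4 of 7 and 3 of 7. Each of these 3 lists had a median of 5 arrays in the PBS channel and 4 in the tumour channel. The medians of all 8997 probes were the same, so these counts turn on the cut of 5 arrays. Markers of other tissues were also seen, such as the muscle genes Ttn (5 of 6 arrays in both channels for 1 of its probes) and Myh1 (5 in the PBS channel and 4 in the tumour channel). Endothelial markers reached 5 arrays in none of 4 probes. The PBS channel was seen more often than the tumour channel in general, with 2238 probes on all 6 arrays against 984, and the part of this in the ratios was not tested.

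No probe passed the test at 18 h. Of 5733 probes measured in 2 or more replicates, 0 (0%) had an adjusted p under 0.05 by the limma test, with Benjamini-Hochberg adjustment over all probes and a smallest adjusted p of 0.999. At an unadjusted p under 0.05 there were 215 (3.75%), 89 above 0 and 126 below. The median log2 ratio of all probes was -0.02, 45.6% lay above 0, and the median standard error was 0.17. Of the 5733 probes, 2322 had 3 replicates and 3411 had 2. The p-values and standard errors are moderated ones. They join the spread between a probe's replicates with a spread taken over all probes (limma, prior degrees of freedom 5.58). From here each gene is given with its values, and no gene is said to have risen or fallen. An exact sign-flip test of 1 gene in 3 replicates cannot give a two-sided p below 0.25.

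The replicates hardly shared their order of genes. Spearman's rho of the tumour over PBS values across probes was 0.068 between replicates 3 and 4 (2541 probes), -0.037 between 3 and 5 (4120 probes) and -0.034 between 4 and 5 (3716 probes). Both arrays of a replicate, which hold the same RNA with the dyes exchanged, had a rho of -0.091, 0.0068 and -0.045 in replicates 3, 4 and 5. The swap cancels the Cy5 over Cy3 part of the ratios. The rho of this part was 0.16 between replicates 3 and 4, 0.05 between 3 and 5 and 0.037 between 4 and 5. Each was above the rho of tumour over PBS for the same pair, though small. Pearson's r for these pairs was 0.22, 0.29 and 0.10 for the Cy5 over Cy3 part. For tumour over PBS it was 0.075, -0.032 and -0.0047. These correlations describe probes on arrays of 1 print layout and carry no test.

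**Figure D1:**
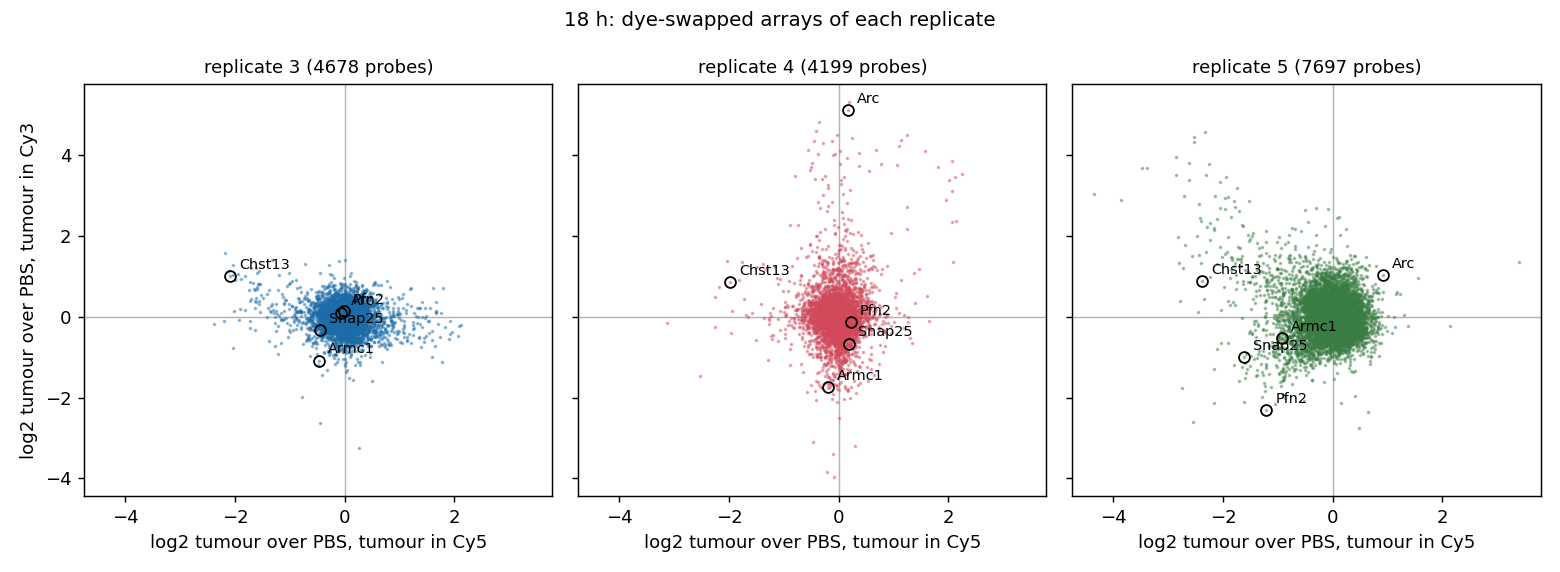
The log2 ratio of tumour over PBS with tumour RNA in Cy5 (horizontal) against that with tumour RNA in Cy3 (vertical), 1 point per probe, for each 18 h replicate, with 5 genes ringed. A ratio seen alike by both arrays lies on the rising diagonal. The clouds show no such diagonal, and Chst13 lies at the upper left in all 3 replicates.

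Some probes had 1 sign in every replicate. Of the 2322 probes with a value in all 3 replicates, 229 (9.86%) were above 0 and 338 (14.6%) below 0 in each. Signs that fell at random would agree in all 3 replicates for a share of 0.25 of probes. These counts therefore do not show agreement between replicates. On all 6 arrays 23 (0.991%) were above 0 and 39 (1.68%) below. Random signs on 6 arrays would give 1 sign throughout for a larger share of probes than these counts together. One sign on all 6 arrays is thus no more frequent here than random signs would make it. The 20 probes with the smallest p among those 2322 had 16 means below 0 and 4 above, with unadjusted p from 0.000321 to 0.0187 and standard errors of 0.13 to 0.21. Of the 20, 8 had 1 sign on all 6 arrays and 5 had opposite signs on the swapped arrays of every replicate.

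Armc1, an armadillo repeat protein, had the smallest p. With tumour RNA in Cy5 and then in Cy3, its log2 ratio was -0.48 and -1.09 in replicate 3, -0.19 and -1.75 in replicate 4, and -0.92 and -0.54 in replicate 5. All 6 arrays lay below 0 after normalisation, and the mean was -0.83 ± 0.13 (SE, n = 3 replicates, limma adjusted p = 0.999). Before normalisation, in scaled arbitrary units, tumour signal exceeded PBS signal on both arrays of replicate 4 (7270 against 6380 and 5010 against 4310). The same held for the replicate 5 array with tumour RNA in Cy5 (7590 against 6530). On the other arrays the tumour signal was the lower. The sign on the arrays with the higher tumour signal thus came with the normalisation. The size also depended on how the arrays were normalised, with a mean of -0.31 without loess and -0.31 with a loess in each sub-grid. In the authors' deposited scores, whose scale is another, the mean was 0.00. A second probe of the gene stood at 0.11, -0.09 and -0.71 in the 3 replicates, so only replicate 5 gave similar values for both.

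**Figure D2:**
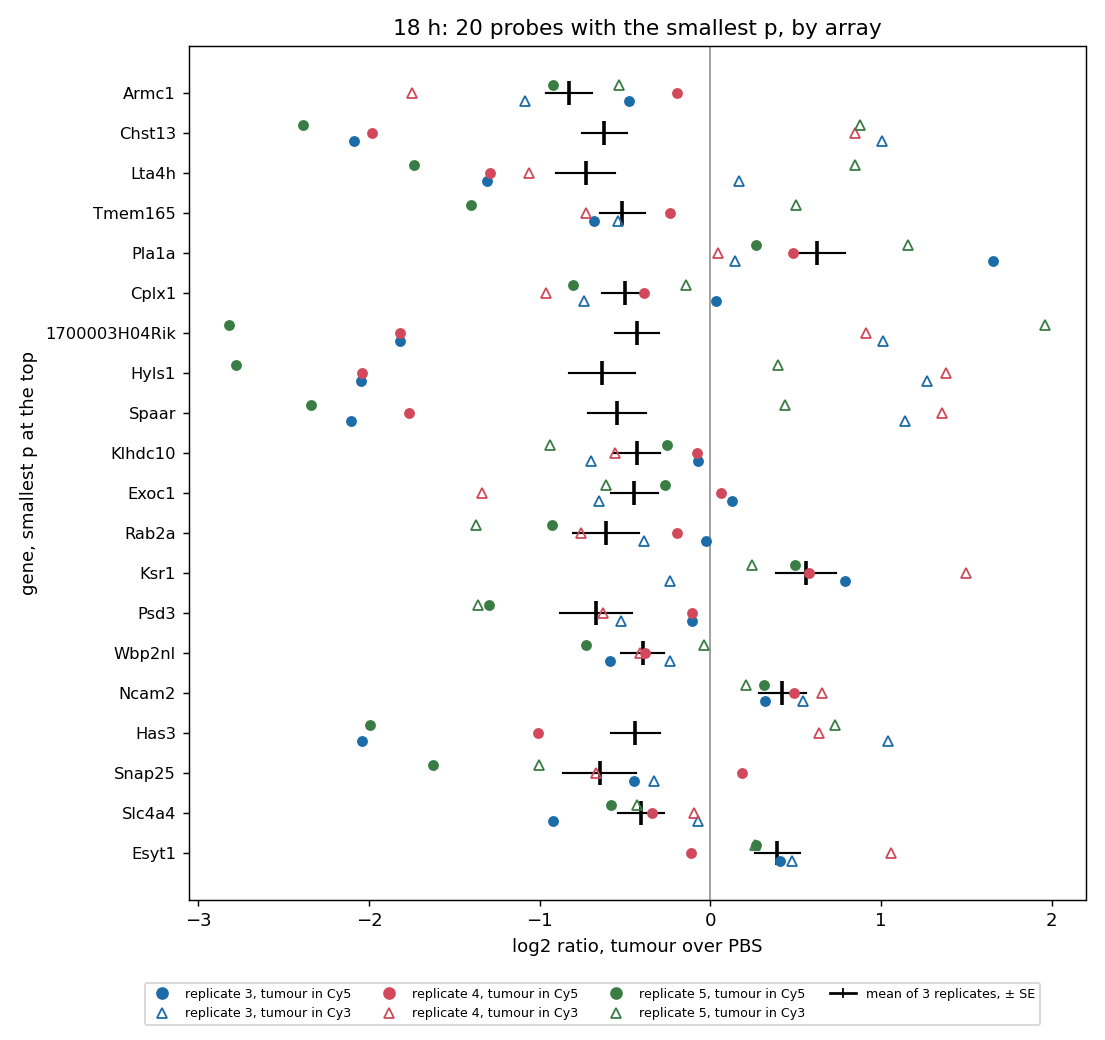
The log2 ratio of tumour over PBS on each of the 6 arrays for the 20 probes with the smallest p at 18 h, with filled circles where Cy5 marked the tumour RNA, open triangles where Cy3 did and a bar for the mean of 3 replicates ± SE. Armc1 has every point left of 0, whereas for Chst13, 1700003H04Rik, Hyls1, Spaar and Has3 all circles lie left and all triangles right of 0.

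Among these 20, Cplx1 and Snap25 act in the release of transmitter. Cplx1, a complexin that clamps the fusion of synaptic vesicles, stood at -0.35, -0.68 and -0.47 in replicates 3, 4 and 5, below 0 on 5 of 6 arrays, with a mean of -0.50 ± 0.14. Snap25, a membrane protein of the fusion complex, stood at -0.39, -0.24 and -1.31, also below 0 on 5 of 6 arrays, with a mean of -0.65 ± 0.21. Replicate 5 gave the lowest value of Snap25, with both of its arrays below those of the other replicates.

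Rab2a, a GTPase of transport between endoplasmic reticulum and Golgi, stood at -0.21, -0.48 and -1.15, below 0 on all 6 arrays. Exoc1, a subunit of the complex that tethers vesicles to the plasma membrane, stood at -0.26, -0.64 and -0.44, but above 0 on the arrays of replicates 3 and 4 with tumour RNA in Cy5 (0.12 and 0.06). Psd3, an exchange factor for a small GTPase of the Arf family, stood at -0.32, -0.37 and -1.33, below 0 on all 6 arrays, and a second probe gave -0.34 in replicate 5. These genes were taken by their p, and nothing was tested of what they share.

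Ncam2, a neural cell adhesion molecule, was above 0 on all 6 arrays. Its arrays gave 0.32 and 0.54, 0.49 and 0.65, and 0.31 and 0.21, with a mean of 0.42 ± 0.14. Pla1a, a phospholipase that acts on phosphatidylserine, stood at 0.90, 0.27 and 0.71, above 0 on all 6 arrays, from 0.05 to 1.66. Ksr1, a scaffold of the MAP kinase cascade, stood at 0.28, 1.04 and 0.37, with 1 array below 0 (-0.24). Esyt1, a membrane tether of the endoplasmic reticulum, stood at 0.44, 0.47 and 0.26, with 1 array at -0.12.

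The other genes with the same sign in each replicate were of varied function. Slc4a4, a bicarbonate transporter of astrocytes, stood at -0.50, -0.22 and -0.50, below 0 on all 6 arrays, while its other probe stood at -0.03 in replicate 3 and 0.48 in replicate 5. Klhdc10, a kelch domain protein, stood at -0.38, -0.32 and -0.60, and Wbp2nl at -0.41, -0.40 and -0.38, both below 0 on all 6 arrays. Tmem165, a membrane protein of the Golgi, stood at -0.61, -0.48 and -0.45, with 1 array at 0.50. Lta4h, which makes the inflammatory lipid leukotriene B4, stood at -0.57, -1.18 and -0.44, with 2 arrays above 0. A second probe of Lta4h gave 0.16, -0.40 and -0.03.

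For 5 of the 20 the even replicate means came from arrays of opposite sign. Chst13, a sulfotransferase of chondroitin chains, had replicate means of -0.54, -0.57 and -0.75, and its arrays gave -2.08, -1.98 and -2.38 with tumour RNA in Cy5 but 1.01, 0.85 and 0.88 with tumour RNA in Cy3. Whichever RNA was in Cy5 was thus the lower on all 6 arrays, and the mean of -0.62 ± 0.13 is the remainder. Has3, which makes hyaluronan, had -2.04, -1.01 and -1.99 against 1.04, 0.63 and 0.73. Hyls1, a centriole protein, Spaar and 1700003H04Rik had the same pattern, with 0.40 to 1.96 over the 9 arrays of these genes with tumour RNA in Cy3.

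The same pattern held for the probes that pass when only 1 orientation is used. With tumour RNA in Cy5 alone, 22 of 6862 probes (0.321%) had an adjusted p under 0.05 by the limma test, all of them below 0, from -2.71 to -1.45. On the swapped arrays 19 of these 22 probes had a mean above 0, and 52 of their 60 array values were above 0. Chst13 and Nat8 had the smallest adjusted p (0.00682), both with a mean of -2.15 in Cy5. Nat8, an acetyltransferase known mainly from kidney and liver, had 2.12 on the swapped arrays, and Ccr3, a chemokine receptor, had -1.56 and 2.24. The 3 exceptions were Lta4h (-0.02 on the swapped arrays), 3200001D21Rik (-0.33 over 2 arrays) and 8430416G17Rik (-0.78 on 1 array). Nat8, Ccr3 and the exceptions other than Lta4h are named after their values were seen. Over all probes with 3 replicates, 339 (14.6%) had opposite signs on the swapped arrays of every replicate, whichever dye was the lower. That share is not far above the share that random signs give. The Cy5 over Cy3 part had 1 sign in all 3 replicates for 653 (28.1%) of the probes with 3 replicates, where random signs give a share of 0.25.

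The largest means among probes with 1 sign on all 6 arrays were carried by 1 replicate in most cases. Mrps18a, a protein of the mitochondrial ribosome, stood at 0.50, 2.70 and 0.17, with a mean of 1.12 ± 0.43. Both arrays of replicate 4 were high (2.02 and 3.38), and the other 4 lay from 0.03 to 0.64. Btn1a1, a butyrophilin, stood at -0.43, -0.84 and -0.16. Gnb1, a G protein beta subunit, stood at -0.15, -0.29 and -1.47, Selenop, the selenium carrier, at -0.12, -0.26 and -1.23, and Idh3a, a subunit of isocitrate dehydrogenase, at -0.06, -0.32 and -1.20. Nars, an aminoacyl-tRNA synthetase, stood at -0.09, -0.48 and -0.98. In 29 of the 39 probes below 0 on all arrays the value farthest from 0 was that of replicate 5, against 7 of the 23 above 0.

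Replicate 5 stood apart from replicates 3 and 4. In replicate 5, 259 of 7697 probes (3.36%) lay below -0.5 on both swapped arrays, against 25 (0.534%) in replicate 3 and 24 (0.572%) in replicate 4. Above 0.5 on both arrays were 50 probes (0.65%) in replicate 5, 16 (0.342%) in replicate 3 and 52 (1.24%) in replicate 4. Among the list genes in this set were Syt4, a synaptotagmin, at -1.86, Pfn2, an actin-binding profilin of neurons, at -1.76, Napb, which helps take fusion complexes apart, at -1.56 for 1 of its 2 probes, and Pdha1, a subunit of pyruvate dehydrogenase, at -1.41. Map2, which binds microtubules in dendrites, was at -1.13, and Gad1, which makes GABA, at -1.02. These 6 are named after their values were seen, and they chose the set, so the values are a description.

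In the other 18 h replicates, which did not choose them, the same 259 probes were centred near 0. Their median was -0.01 in replicate 3 (194 probes, 51.5% below 0 against 52.3% of all probes) and -0.01 in replicate 4 (176 probes, 52.3% below 0 against 52.3%). At 72 h, replicate 4 had a median of 0.06, with 30.1% below 0 against 45.4% of all its probes, and at 192 h, replicate 4 had 0.01. Replicate 3 at 192 h had a median of -0.17, with 145 of 183 probes (79.2%) below 0 against 49.2% of all its probes. The median of the 259 probes lay at the 84th percentile of mean intensity over the 18 h arrays, and the part of brightness in these values was not tested. Across all probes, replicate 5 at 18 h and replicate 3 at 192 h had a rho of 0.16 (3443 probes), and the other pairs of an 18 h with a later replicate had rho from -0.053 to 0.021.

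**Figure D3:**
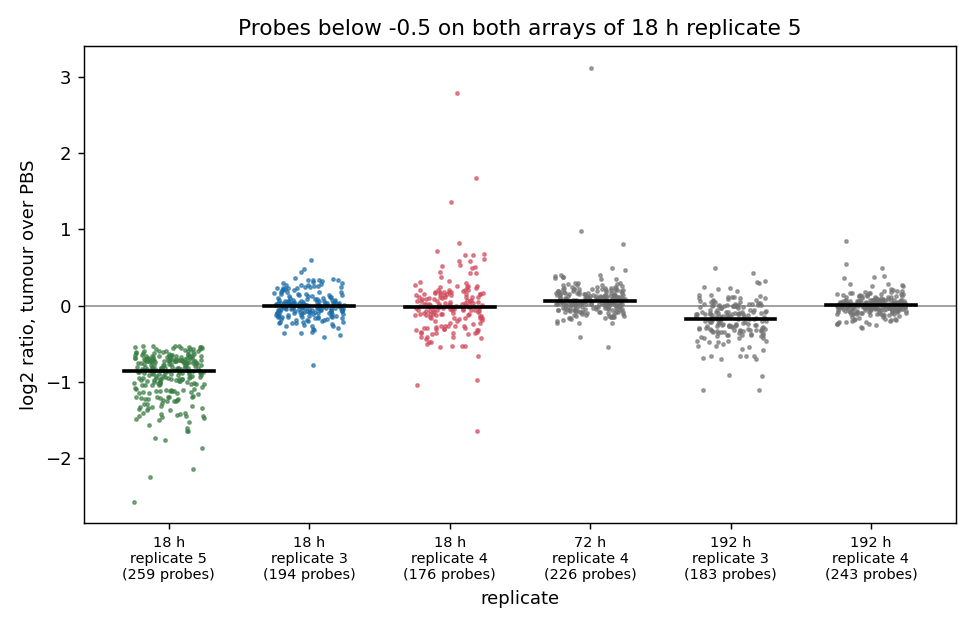
The log2 ratio of tumour over PBS in 6 replicates for the probes that lay below -0.5 on both arrays of 18 h replicate 5, 1 point per probe, with a bar at the median. The first column chose the probes. Replicates 3 and 4 at 18 h are centred at -0.01, and of the later replicates only 192 h replicate 3 is centred below 0 (-0.17).

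Of the 27 gene lists with 5 or more measured probes, 11 had their lowest median in replicate 5, 8 in replicate 4 and 3 in replicate 3, and 5 were tied. The 11 included neuronal lists and others, such as glycolysis and acute phase genes, while the lists of glutamate receptors and of monoamine and peptide genes were lowest in replicate 4. Of 16 measured probes of the actin and tubulin cytoskeleton, 12 lay below 0, with a median of -0.18. The median was 0.03 without replicate 5 and 0.04 without loess. The replicate medians were 0.04, 0.03 and -0.41, the last being that of replicate 5 (-0.51 and -0.56 on its arrays), where 7 of 16 (43.8%) belonged to the set below -0.5 on both arrays, against 3.36% of all probes. That set also held 4 of 15 synaptic vesicle probes and 3 of 7 inhibitory neuron markers, but 0 of 18 proteasome probes and 0 of 22 cytokine probes, and 19 of 33 lists had no member in it. Cnn3, an actin-binding calponin, stood at -1.65 in replicate 4 and -0.66 in replicate 5, but its value in replicate 4 came from 1 array (-3.13 against -0.17). Cfl2, a cofilin that cuts actin filaments, stood at -0.21 and -0.80 in these replicates. Actn4, an actinin, stood at 0.01, 1.05 and 0.22.

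Genes of the synaptic vesicle and of release had 9 of 15 probes below 0 and a median of -0.20, against -0.02 for all probes. The medians were 0.03, -0.24 and -0.24 in replicates 3, 4 and 5. On the arrays of replicate 4 they were 0.02 for the Cy5 orientation and -0.50 for its swap, and on those of replicate 5 they were -0.24 and -0.33. Of the 15 probes 2 had an unadjusted p under 0.05, Cplx1 and Snap25 as given above, against 3.75% of all probes. Syn1, a synapsin, stood at 0.26, -0.28 and 0.11, and Rab3a, a GTPase of synaptic vesicles, at 0.13, -0.26 and 0.32, so members lay on both sides of 0. In a bulk sample fewer cells of a type and less RNA per cell cannot be told apart.

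The vacuolar proton pump, which acidifies lysosomes and loads synaptic vesicles with the gradient for transmitter uptake, had 5 of 7 probes below 0 and a median of -0.26. Atp6ap2, an accessory subunit, stood at -1.08 in replicate 4 and -0.93 in replicate 5. Its arrays in replicate 4 gave -0.04 and -2.12, and its 1 array in replicate 3 gave -0.03. Atp6v1a, the catalytic subunit, stood at -0.52 and -0.97 in replicates 4 and 5, with 0.08 and -1.13 on the arrays of replicate 4. The 5 pump genes with a value in replicate 3 lay from -0.02 to 0.08 there. The pump's median was 0.00 without replicate 5 and -0.01 when a value in all 3 replicates was needed.

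Markers of inhibitory neurons lay below 0 for each of the 8 genes measured, and their median was -0.11. The replicate medians were 0.07, -0.11 and -0.41. Kcnc1, a potassium channel of fast-spiking cells, stood at -0.13, -0.13 and -0.67. Gad1 stood at 0.07 in replicate 3 and -1.02 in replicate 5, and Gad2, the other GABA-making enzyme, at 0.30, 0.05 and -0.41. Sst, the peptide of another interneuron class, stood at -0.30 and -0.18 in replicates 3 and 4. Markers of cortical excitatory neurons had 5 of 10 probes below 0 and a median of -0.02, with Lamp5 at -0.26 ± 0.17 by 1 probe and 0.01 by another, and Camk2a, a kinase of excitatory synapses, at 0.18 ± 0.15.

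Potassium channels had 9 of 12 probes below 0 and a median of -0.22, with replicate medians of -0.13, -0.13 and -0.07, none of them as far from 0 as the median of the means. Of the 12 probes 6 had all 3 replicates, and their median was -0.07. Kcnma1, a calcium-activated channel, had arrays of opposite sign (-1.73 and 0.38 in replicate 3, -2.42 and 2.43 in replicate 5) by 1 probe, and stood at -0.05, 0.18 and -1.04 by another. GABA and glycine receptors had a median of -0.14, with Gabra2 at -0.01 and -1.02 in replicates 4 and 5 and Gabrg3 at -0.34, -0.99 and 0.16. Without replicate 5 the median was 0.03. Glutamate receptors and scaffolds had a median of -0.10, with Grik2, a kainate receptor, at 0.37, -0.09 and 0.85 and Gria4, an AMPA receptor, at 0.14, -0.84 and -0.33. Sodium and calcium channels had 5 of 8 above 0 and a median of 0.15, with Scn9a at 0.51 and 0.40 in replicates 3 and 5 and Cacna1d at -0.22 and -0.48. The replicate medians of that list were -0.18, 0.00 and 0.17, and its median was -0.23 without replicate 4.

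**Figure D4:**
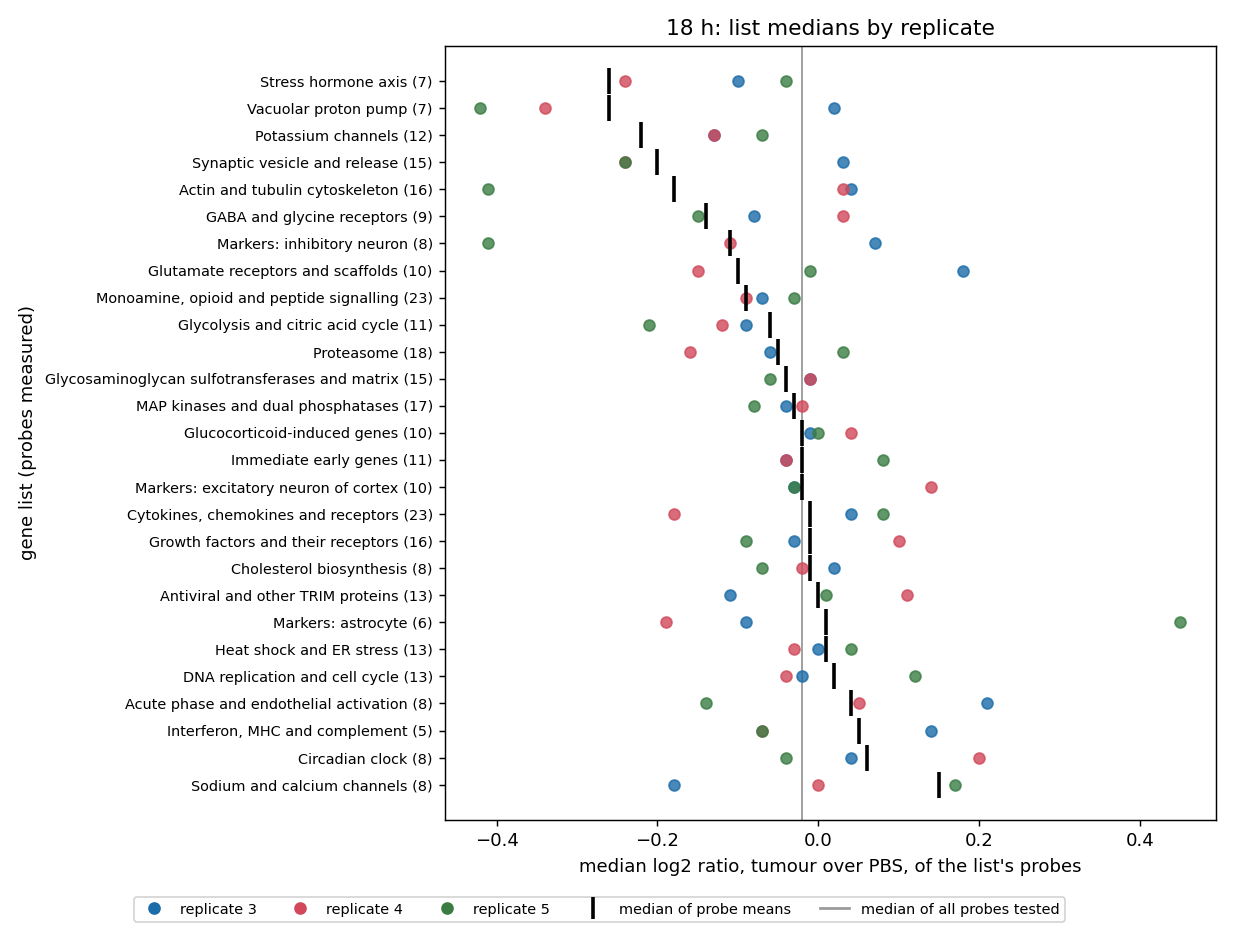
The median log2 ratio of tumour over PBS of each gene list with 5 or more measured probes, for each 18 h replicate (points) and for the means over replicates (bars), with a grey line at the median of all 5733 probes (-0.02). A bar can lie outside the points because not every probe was measured in each replicate. For most lists the 3 points lie on both sides of the grey line, and replicate 5 is lowest for the cytoskeleton, pump and inhibitory neuron lists.

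Neuronal activity genes went both ways. Of 11 immediate early genes 4 lay above 0, with a median of -0.02. Arc, which shapes synaptic strength, stood at 0.02 in replicate 3, 2.64 in replicate 4 and 0.96 in replicate 5, with a mean of 1.21 ± 0.41. In replicate 4 its arrays gave 0.17 and 5.11, whereas in replicate 5 they gave 0.91 and 1.02. Without replicate 4 the mean was 0.49. Nr4a2, a nuclear receptor induced by activity, stood at 0.57 and 0.43 in replicates 4 and 5. Egr2, Egr3 and Egr4, transcription factors of the same response, stood at 0.00, -0.28 and -0.02, and Fosb at -0.44 ± 0.20 over 2 replicates.

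Signals of inflammation were measured by several lists. Of 8 acute phase and endothelial activation genes 6 lay above 0, with a median of 0.04. Saa3, an acute phase protein, stood at 0.20 in replicate 3 and 2.83 in replicate 4, where its arrays gave 1.57 and 4.09, and the 1 array of replicate 5 with a value gave 0.56. Crp, another acute phase protein, stood at -0.43 and -0.34 in replicates 3 and 5. Timp1, a protease inhibitor, stood at 0.69 and -0.18, and Ptges, an enzyme of prostaglandin E2 synthesis, at 0.45, 0.05 and 0.06.

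Of 23 cytokine, chemokine and receptor genes 11 lay above 0 and 12 below, with a median of -0.01. Lta, lymphotoxin alpha, stood at -1.16 and -0.15 in replicates 3 and 5, and its arrays in replicate 5 gave -1.74 and 1.44. Il18 stood at 0.43 and 0.27 in replicates 4 and 5. The chemokines Ccl2 (-0.02), Cxcl1 (0.04) and Cxcl10 (0.02) and the cytokine Il1b (-0.01) had means close to 0. Of 5 interferon, antigen presentation and complement genes 4 lay above 0, with a median of 0.05, Isg15 at -0.07 and 0.46 and C1qb at -0.17 and -0.09. Antiviral and other TRIM proteins had a median of 0.00 over 13 probes, with Trim34a at -0.44 and -0.96 in replicates 3 and 5 and Trim59 at -0.28 and 1.25 in replicates 4 and 5. Microglia markers were measured for 3 genes, all with means below 0 over replicates 3 and 5 (Aif1 at -0.17, P2ry12 at -0.22 and C1qb at -0.13). Each was above 0 on the 1 array of replicate 4 that measured it (Aif1 at 0.33, P2ry12 at 1.90 and C1qb at 0.47).

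The stress hormone axis had 5 of 7 genes below 0 and a median of -0.26. Ucn, a ligand of the receptors for corticotropin-releasing hormone, stood at -0.09, -0.88 and -0.13, with -1.73 on 1 array of replicate 4. Crhr1, the main receptor of that hormone, stood at 0.51, 0.25 and 0.05. Without replicate 4 the median of the list was 0.06. Of 10 genes known to be induced by glucocorticoids 5 lay above 0, with a median of -0.02. Fkbp5, a co-chaperone of the glucocorticoid receptor, stood at -0.15, 0.04 and -0.49, and Klf9, a transcription factor, at 0.14, 0.80 and -0.24. Circadian clock genes had 7 of 8 above 0 and a median of 0.06, with Nfil3, a repressor, at 1.23 in replicate 4 and 0.14 in replicate 5 and Tef, an activator of clock output, at -0.05, -0.17 and -0.79.

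Among monoamine, opioid and peptide genes 15 of 23 lay below 0, with a median of -0.09. Npy1r, a receptor of neuropeptide Y, stood at -0.44, -0.25 and -0.22, although its arrays in replicate 5 gave -1.84 and 1.40. Npy2r, another receptor of that peptide, stood at -0.16 and -0.72 in replicates 4 and 5. Growth factors and receptors had a median of -0.01 over 16 probes. Igf2, a growth factor made by the meninges and the choroid plexus, stood at 0.96, 0.50 and 0.13, with arrays of 1.22, 0.70, 0.77, 0.23, -0.08 and 0.33 and a mean of 0.53 ± 0.18. Dcn, a matrix protein of the meninges, stood at 0.15, 0.34 and 0.02. Kl, the klotho protein of the choroid plexus, stood at -0.44 and 0.23 in replicates 4 and 5, and the 3 measured markers of choroid plexus or meninges had a median of 0.17. Ret, a receptor of glial-derived growth factors, stood at 0.17, 0.41 and 0.36.

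Metabolic and housekeeping lists had medians within 0.06 of 0. Glycolysis and the citric acid cycle had 7 of 11 genes below 0 and a median of -0.06, with Pgk1, a glycolytic kinase, at -0.11, -0.84 and -0.49 and Sucla2, a succinate ligase subunit, at -0.09, -0.26 and -0.57. The proteasome had a median of -0.05 over 18 probes, with Psma1 at -0.03, -0.32 and -0.41 and Psmb3 at -0.44, -0.69 and 0.29. Over 13 probes for heat shock and stress of the endoplasmic reticulum the median was 0.01. Dnaja1, a co-chaperone, stood at -0.11, -0.41 and -0.68, and Canx, a chaperone of the endoplasmic reticulum, at 0.07 and -1.23 in replicates 3 and 5. Cholesterol synthesis had a median of -0.01 over 8 probes, with Pmvk at 0.20, 0.38 and 0.08 and Fdft1 at 0.22 and 0.16 in replicates 4 and 5. DNA replication and cell cycle genes had a median of 0.02 over 13 probes. Mcm10, a factor of replication forks, stood at 1.02 and 0.71 in replicates 3 and 5 by 1 probe and at 0.17, 0.03 and 0.16 by another, and Gmnn, a replication inhibitor, stood at 0.42 and 0.19 in replicates 4 and 5.

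MAP kinases and their phosphatases had a median of -0.03 over 17 probes, with Mapk6 at 0.06, -0.11 and -0.72 by 1 probe and -0.03, -0.15 and 0.09 by another, and Mapk11 at -0.26 and -0.10 in replicates 3 and 5. Glycosaminoglycan sulfotransferases and matrix genes, the list that holds Chst13 and Has3, had a median of -0.04 over 15 probes. Chst11, another chondroitin sulfotransferase, stood at 0.09 and -0.01 by its 2 probes, and Acan, the core protein of perineuronal nets, at -0.02.

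Of the remaining cell type markers few were measured. Astrocyte markers had a median of 0.01 over 6 probes, with Sox9, a transcription factor, at -0.09 and -0.48 in replicates 3 and 5. S100b, a calcium-binding protein, stood at -0.19 and 0.47 in replicates 4 and 5, and Aldh1l1, a folate enzyme, at -0.22 and 0.45 in replicates 3 and 5. The median of this list lay below 0 in 16 of 18 alternative settings, from -0.41 to 0.03. Oligodendrocyte markers gave Cldn11, a myelin protein, at -0.01 and -0.34 in replicates 3 and 4 and Olig2, a transcription factor, at 0.30 and 0.01 in replicates 4 and 5. Striatum markers lay below 0 in 3 of 3 genes, with Rgs9 at -2.03 in replicate 4 (-0.21 and -3.85 on its arrays) and 0.10 in replicate 5, and Pde10a at -0.20 and -0.49 in replicates 3 and 5. The T cell marker Cd3e stood at -0.36, -0.89 and 0.26. Among genes of other tissues Myh1, a muscle myosin, stood at 0.42, -0.01 and 0.31 and Cela1, a pancreatic enzyme, at 0.07 and 0.39 in replicates 4 and 5, sizes like those of many cortical genes above.

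The values at 18 h were set against those of the later dye-swapped replicates of total RNA, replicate 4 at 72 h and replicates 3 and 4 at 192 h, each with its own PBS controls. Of 3811 probes tested for the difference, 0 (0%) had an adjusted p under 0.05 by the limma test, with a smallest adjusted p of 0.234, and 159 (4.17%) had an unadjusted p under 0.05. The smallest p was again that of Armc1. Armc1 stood at -0.78, -0.97 and -0.73 at 18 h and at 0.21, 0.42 and 0.11 later. The difference was -1.08 ± 0.15 (limma adjusted p = 0.234). With the authors' deposited scores the difference was -0.20, but their scale is another. Over spots of the 18 h arrays the scores had slopes of 0.243 to 0.537 on the log2 ratios used here.

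The other 9 genes of this comparison had an adjusted p of 0.969 by the limma test. Choosing genes by a small p selects for a gap between the values at 18 h and later. Such a gap in these genes is therefore no result, and its share over all tested probes was not counted. Lta4h stood at -0.57, -1.18 and -0.44 at 18 h and at -0.04, 0.34 and 0.11 later. Atp6ap2 stood at -1.08 and -0.93 at 18 h and at 0.08, -0.27 and 0.00 later, with a difference of -0.94 ± 0.17. Tmem222, a membrane protein, stood at 0.91 and 0.73 at 18 h and at -0.46, 0.00 and -0.32 later, but its mean at 18 h was -0.16 with a loess in each sub-grid. Extl1, a glycosyltransferase of heparan sulfate, stood at -0.39 and -0.98 at 18 h and at 0.22, 0.11 and 0.17 later. Usp27x, a ubiquitin protease, stood at -0.34 and -0.34 at 18 h and at 0.72 and 0.32 later. Ecm2, a matrix protein, stood at -0.49 and -0.66 at 18 h, where its arrays in replicate 5 gave -4.36 and 3.03. Trim34a, Chst13 and Cnn3 had differences of -0.80 ± 0.19, -0.62 ± 0.16 and -1.22 ± 0.31.

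**Figure D5:**
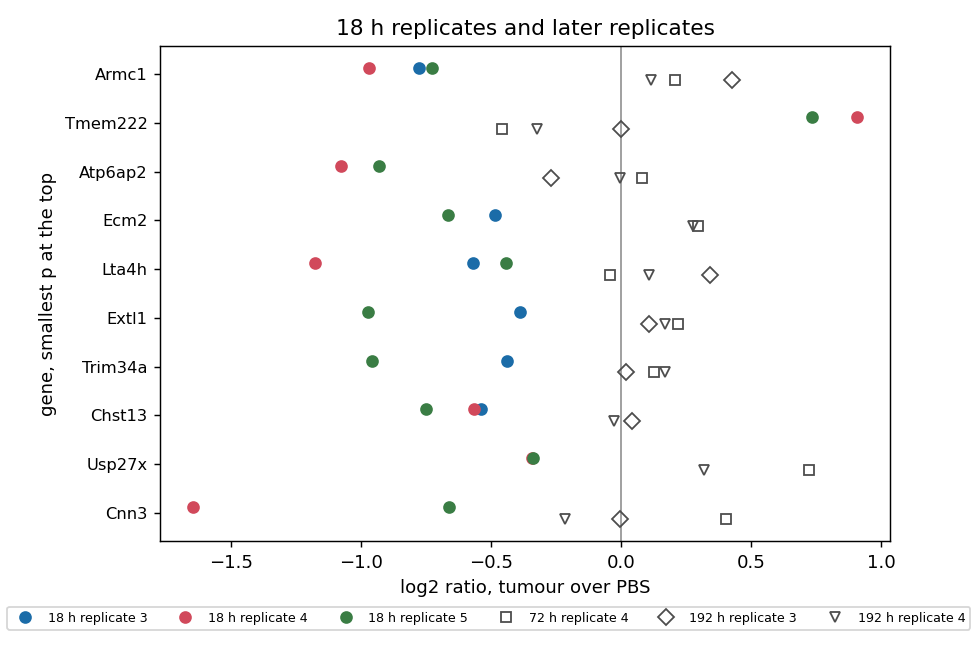
The log2 ratio of tumour over PBS in the 18 h replicates (filled circles) and in 3 later replicates (open symbols) for the 10 probes with the smallest p in the difference of 18 h and later. The genes were chosen for that difference, so a gap between their 18 h and later points is no result. Armc1 and Lta4h have all 6 points, and the other 8 lack 1 or more.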

How the data were processed

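Per the file headers, the scanner files give for each spot and channel an intensity with the local background subtracted by the authors' software, on a linear scale in arbitrary units. The software is not given in the sources used here. The authors' deposited score per spot follows a log ratio, with base and normalisation not given. Channel A was taken as Cy3 because the deposited scores then follow the dye labels (correlation over spots 0.562 to 0.88). Were it Cy5, every direction would turn.

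Spots without signal or of small area were left out. The log2 ratio was computed in each of 3 files, normalised by loess on intensity (limma loessFit, span 0.3, 4 iterations), signed as tumour over PBS, then averaged across files, spots of 1 GenBank entry and both orientations. Replicate means were tested against 0, or between 18 h and later, with lmFit and eBayes (limma 3.58.1, R 4.3.3). The later replicates of poly(A) RNA and replicate 3 at 72 h were left out, and adding the latter gave 0 calls. Probes needed 2 replicates, and p-values were adjusted over all probes. The number of arrays limits the precision. Of 10080 spots 9066 had 1 symbol, and symbols were updated by gene identifier (GRCm38.p6, for names alone).

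Named genes were the 20 probes with the smallest p among those with 3 replicates, the 10 largest means with 1 sign on all 6 arrays, 2 members of each list with the smallest p, and the 10 smallest p against later times. Other list members are given with their own values. Members and lists were chosen with earlier results of these data known. The tests were tried on simulated data. Alternatives covered background, normalisation, scanner file, deposited scores, filters, orientation, variance model and left-out replicates.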

Additional observations from a re-analysis of the deposited data

Results flagged for a closer look

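In 7 of 87 named probes with values on 4 to 6 arrays, 1 array lay far from the others by Dixon's criterion, which chance alone meets in about 1 of 20 groups. All 7 values came from replicate 4, and 5 of them from its array with tumour RNA in Cy3. On that array Arc stood at 5.11 (the next value was 1.02), Nfil3 at 2.83 (next 0.19), Rgs9 at -3.85 (next -0.21), Ucn at -1.73 (next -0.23) and Btn1a1 at -1.57 (next -0.54). On the array of replicate 4 with tumour RNA in Cy5, Cnn3 stood at -3.13 (next -0.82) and Cd3e at -2.26 (next -0.53). The array with tumour RNA in Cy3 had the widest spread of the 6 (SD of 0.75 against 0.35 to 0.56) and 10.1% of its probes beyond 1 in size, against 1.22% to 6.21% on the others. The part of that array in these values was not tested.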

How the results depend on the processing

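No probe passed at 18 h under any alternative but 1. With tumour RNA in Cy5 alone 22 passed, all below 0, and the swapped arrays gave 19 of them a mean above 0. The probes in one direction on all 6 arrays at 18 h numbered 62, against 37 without loess, 34, 20 and 28 with scanner file 1, 2 and 3 alone, 2 where signal had to reach the background, and 307 to 451 with 1 replicate left out, where 4 arrays remain. Fewer probes are tested with a single file or with the signal filter.

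For 18 h minus later, a replicate block gave 14 calls (limma adjusted p, 10 above 0 and 4 below), 12 of them with 1 residual degree of freedom. Armc1 had -1.16 (adjusted p = 0.0169) and Lta4h -1.08 (adjusted p = 0.0255). Deviations of same-numbered replicates correlated at -0.19, 0.096 and 0.047 over 1084 probes, so the numbers were not taken as pairs.

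Over 32 lists with a median other than 0, 92 of 579 values under the alternatives had the opposite sign, in 25 lists, among them astrocyte markers (16 of 18), glucocorticoid-induced genes (9 of 19), cholesterol synthesis (8 of 19), and growth factors and immediate early genes (6 of 19 each). Of 1435 values of named probes 36 changed sign. The cause was not tested for either. Without loess Isg15 had 0. With a loess in each sub-grid the values were Nfil3 -0.03, Camk2a -0.01, Aif1 0.01, Kcnma1 0.04 and Tmem222 -0.16. With scanner file 3 alone Klf9 had -0.05 and Camk2a -0.12. In the deposited scores Btn1a1 had 0.17, Klf9 -0.07 and C1qb 0.01. With 1 orientation enough C1qb had 0.07 and P2ry12 0.49, and P2ry12 had 0.14 with arrays fitted singly and the replicate as a block. With tumour RNA in Cy5 alone the values were Nfil3 -0.09, Mapk11 0.04, Dcn -0.02, Camk2a -0.35, Aif1 0.14, P2ry12 0.52, Psmb3 0.02 and Tmem222 -0.29. With tumour RNA in Cy3 alone they were Chst13 0.91, 1700003H04Rik 1.29, Hyls1 1.02, Spaar 0.98, Has3 0.80, Lta 0.66, Isg15 0, Cd3e 0.16, Olig2 -0.01, Npy1r 0.34, Kcnma1 1.41, Ecm2 1.98 and Usp27x 0.06. Klf9 lay between -0.05 (without replicate 4) and 0.47 with 1 replicate left out.

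The number of replicates, 3, limits the precision of each value.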
